A study of Caenorhabditis elegans with 3 samples.

Results

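Translation initiation factors, the translation factor eIF5A and aminoacyl-tRNA synthetases of Caenorhabditis elegans were described here in polyA RNA of animals given RNAi against Dicer (dcr-1 RNAi), RNAi against Drosha (drsh-1 RNAi) or a mock treatment. The genes were chosen with earlier results of these data known. They were all those whose names begin with eif, eef or iff or with an amino acid letter followed by rs or ars. This gave 43 of 10168 genes listed in the deposited tables, of which 43 were in the dcr-1 table (9631 genes) and 42 in the drsh-1 table (9996 genes). They comprised 9 genes named as subunits of eIF3, eif-6, the 2 eIF5A genes iff-1 and iff-2, and 31 synthetase genes. No listed gene carried an eef name, and elongation factors appear below under their eft names.

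All 3 groups were young adults of a fem-1 strain, labelled 2.5 days and fed for RNAi, with 1 library each of dcr-1 RNAi, drsh-1 RNAi and mock. Loss of fem-1 feminizes the germ line, so that animals make oocytes and no sperm of their own, and the labels give sterility under dcr-1 loss as the reason for the strain. The labels give no allele, no number of animals and no account of what the mock animals were fed. With 1 library per group no difference has a replicate check, and no SD, p-value or interval could be computed.

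Translation begins when initiation factors bring the small ribosomal subunit, the initiator tRNA and the mRNA together. eIF3, a large complex of many subunits, holds the small subunit in a form that can accept the mRNA. eIF6 keeps free large subunits from joining too early, and eIF5A, which carries the modified lysine hypusine, helps the ribosome through stretches that are hard to elongate or to end. Aminoacyl-tRNA synthetases load each tRNA with its amino acid, and many eukaryotes keep separate genes for the cytosolic and the mitochondrial enzyme of an amino acid. In C. elegans, iff-1 is known for its role in the germ line and iff-2 for its role in the soma.

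Each targeted transcript was lower in its own RNAi library. dcr-1 was at 23.8 FPKM under dcr-1 RNAi against 36.8 FPKM in mock, and drsh-1 at 20.9 FPKM under drsh-1 RNAi against 32.0 FPKM in mock (log2 ratios -0.61 and -0.59). The mock level of drsh-1 is 26.2 FPKM in the dcr-1 table, and set against it the drsh-1 RNAi value gives a log2 ratio of -0.31, which is within 1.5-fold. FPKM counts fragments per kilobase of a transcript relative to all mapped fragments, and every ratio below is log2 of (FPKM + 1) over (FPKM + 1), so 0.585 stands for 1.5-fold. Germ line and oocyte markers, of which 23 of 26 were listed, summed to 5326 FPKM under dcr-1 RNAi and 5654 FPKM under drsh-1 RNAi, against 5313 FPKM in mock. Under dcr-1 RNAi 12 of the 23 were above mock and 11 below, from -1.15 (pgl-1) to 0.45 (htp-3). The 9 body wall muscle markers were all listed, were above mock under dcr-1 RNAi in 9 of 9 cases, and summed to 2764 FPKM under dcr-1 RNAi against 1570 FPKM in mock, and to 1765 FPKM under drsh-1 RNAi against 1611 FPKM in mock. The 5 of 6 listed intestinal markers summed to 982 FPKM under dcr-1 RNAi against 563 FPKM in mock, and to 796 FPKM under drsh-1 RNAi against 565 FPKM in mock. The largest part of these sums was cpr-6, a cathepsin B gene, at 920 FPKM under dcr-1 RNAi against 491 FPKM in mock. Of the 5 genes 3 were below mock under dcr-1 RNAi, namely asp-1 (-1.79), ges-1 (-1.28) and elt-2 (-0.07), the last being the median of the list. Of 9 early embryo markers 4 were listed, and they summed to 19.04 FPKM under dcr-1 RNAi and 61.8 FPKM under drsh-1 RNAi, against 12.4 FPKM in mock. The 6 of 8 listed yolk and adult markers summed to 3949 FPKM under dcr-1 RNAi and 2488 FPKM under drsh-1 RNAi, against 1800 FPKM in mock. Under dcr-1 RNAi they were split, with 4 above mock (vit-1, vit-3, vit-4 and col-19, at log2 ratios of 2.095 to 3.75) and 2 below, vit-2 at 147 FPKM against 1165 FPKM in mock (-2.98) and vit-6 at 2.29 FPKM against 62.2 FPKM in mock (-4.26). Sperm genes summed to 75.8 FPKM over 9 listed genes under dcr-1 RNAi, against 78.9 FPKM in mock, and to 73.6 FPKM over 8 listed genes under drsh-1 RNAi, against 76.6 FPKM in mock. Below mock under dcr-1 RNAi were spe-39, at 29.9 FPKM against 48.6 FPKM in mock, and ssp-10 (-0.66), whereas 7 of the 9 sperm genes were above mock, with a median log2 ratio of 0.53 and 3 at least 1.5-fold higher. None of these markers is given a value of 0, since the tables list only genes of more than 2 FPKM in both of their libraries. The part of such tissue markers in the results below was not tested, and in whole animals fewer cells of a type and less RNA per cell cannot be told apart.

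The translation genes were well expressed. Their median level was 93.8 FPKM under dcr-1 RNAi against 68.0 FPKM in mock over the dcr-1 table, and 72.3 FPKM under drsh-1 RNAi against 74.1 FPKM in mock over the drsh-1 table. Over all genes, the medians were 27.5 FPKM under dcr-1 RNAi and 27.3 FPKM in mock for the dcr-1 table. In mock, 37 of the 43 genes were above the median of all genes. Levels ran over more than 2 orders of magnitude. The summed level of the genes was 0.681% of the summed FPKM of all genes under dcr-1 RNAi and 0.656% in mock. Over the drsh-1 table it was 0.633% under drsh-1 RNAi and 0.666% in mock. The largest single part was iff-1, at 1999 of 5579 FPKM under dcr-1 RNAi and 1342 of 4387 FPKM in mock. The summed FPKM of all genes was 819608 under dcr-1 RNAi and 668652 in mock.

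The highest level in every library was that of iff-1, at 1999 FPKM under dcr-1 RNAi and 1486 FPKM under drsh-1 RNAi, against 1342 FPKM in mock. After it in mock, over the dcr-1 table, came synthetases and an eIF3 subunit. The lysyl-tRNA synthetase gene krs-1 was at 248 FPKM under dcr-1 RNAi and 192 FPKM under drsh-1 RNAi, against 181 FPKM in mock. The aspartyl-tRNA synthetase gene drs-1 was at 196 FPKM under dcr-1 RNAi and 176 FPKM under drsh-1 RNAi, against 175 FPKM in mock. Both synthetases stood above mock under dcr-1 RNAi, whereas under drsh-1 RNAi they were close to it (log2 ratios 0.09 and 0.01). eif-3.K was at 140 FPKM in both RNAi libraries, against 146 FPKM in mock, and the prolyl-tRNA synthetase gene prs-1 was at 175 FPKM under dcr-1 RNAi and 137 FPKM under drsh-1 RNAi, against 145 FPKM in mock. The lowest level was that of crs-2, named for cysteine, at 4.82 FPKM under dcr-1 RNAi and 4.24 FPKM under drsh-1 RNAi, against 5.96 FPKM in mock.

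**Figure D1:**
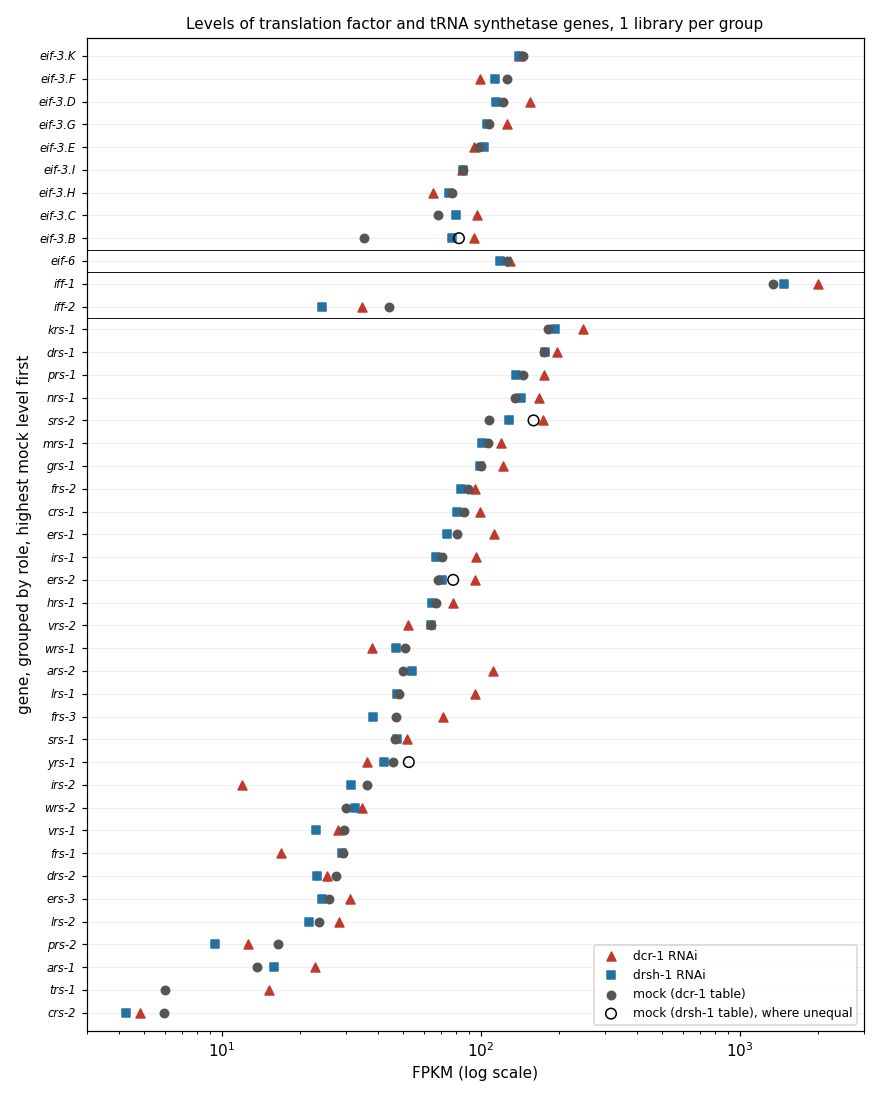
Level of each of the 43 genes under dcr-1 RNAi, drsh-1 RNAi and mock (FPKM, log axis, 1 library each), grouped by role and ordered by the mock level of the dcr-1 table, with open circles for the mock level of the drsh-1 table where it differs. iff-1 is the highest at 1999, 1486 and 1342 FPKM, and the triangles of dcr-1 RNAi lie farther from mock than the squares of drsh-1 RNAi for irs-2, lrs-1 and ars-2.

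In the comparison of dcr-1 RNAi with mock, the question was how knockdown of Dicer bears on polyA RNA levels. More of the translation genes were above mock than below it, with small differences for most of them. Of the 43 genes 28 were above mock (65.1%, beside 55.5% of all 9631 genes) and 15 below, with a median log2 ratio of 0.21 beside 0.06 over all genes and 0.09 over the genes that averaged 20 FPKM or more. At least 1.5-fold higher were 7 of 43, or 16.3%, beside 16.0% of all genes, which is no more than the background. At least 2-fold higher were 3 of 43, or 6.98%, beside 6.71% of all genes. At least 1.5-fold lower were 2 of 43, or 4.65%, beside 13.9% of all genes. Among genes averaging 20 FPKM or more, 2 of 39 were at least 1.5-fold lower, beside 10.9% of all such genes. The genes also spread less than the whole table, with an SD across genes of 0.52 in the log2 ratio beside 0.73 over all genes. An SD over genes of like level was not computed.

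Among the initiation factors, the subunits of eIF3 showed no common direction under dcr-1 RNAi. Of the 9 subunits 4 were above mock and 5 below, the median log2 ratio was -0.01, and 8 of 9 were within 1.5-fold of mock. The exception was eif-3.B, a subunit of the conserved core of the complex, at 93.8 FPKM under dcr-1 RNAi against 35.4 FPKM in mock (log2 ratio 1.38), the highest ratio of the 43 genes. Its mock level is 82.2 FPKM in the drsh-1 table, where drsh-1 RNAi was at 77.2 FPKM (-0.09). Set against that mock level, the dcr-1 RNAi value gives a log2 ratio of 0.19, so the call of eif-3.B as 1.5-fold higher rests on the mock value of the dcr-1 table. The Ensembl annotation gives 2 transcripts for eif-3.B, and also for eif-3.G, eif-3.I and iff-2, whose mock values were equal in both tables. Which transcripts a value covers cannot be told, and why the mock values of eif-3.B differ was not tested.

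The other eIF3 subunits lay closer to mock. eif-3.C, also of the conserved core, was at 96.8 FPKM under dcr-1 RNAi and 79.9 FPKM under drsh-1 RNAi, against 68.3 FPKM in mock (0.50 and 0.22). eif-3.D was at 154 FPKM under dcr-1 RNAi and 115 FPKM under drsh-1 RNAi, against 122 FPKM in mock (0.34 and -0.09). Under dcr-1 RNAi these subunits were thus above mock, whereas eif-3.F and eif-3.H, which share a fold related to that of deubiquitinases, were below it. eif-3.F was at 99.3 FPKM under dcr-1 RNAi and 113 FPKM under drsh-1 RNAi, against 126 FPKM in mock (-0.34 and -0.16), and eif-3.H at 65.1 FPKM under dcr-1 RNAi and 75.1 FPKM under drsh-1 RNAi, against 77.6 FPKM in mock (-0.25 and -0.05). eif-3.E, eif-3.I and eif-3.K had log2 ratios between -0.06 and -0.01 under dcr-1 RNAi, and eif-3.G had 0.23. eif-6 was at 130 FPKM under dcr-1 RNAi and 118 FPKM under drsh-1 RNAi, against 126 FPKM in mock (0.05 and -0.09).

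The eIF5A genes lay on opposite sides of mock under dcr-1 RNAi. The germ line gene iff-1 had a log2 ratio of 0.57 there, just under 1.5-fold, and 0.15 under drsh-1 RNAi. The somatic gene iff-2 was at 34.9 FPKM under dcr-1 RNAi and 24.4 FPKM under drsh-1 RNAi, against 44.1 FPKM in mock (-0.33 and -0.83). Its level under drsh-1 RNAi was the farthest from mock of any of the genes in that library. The germ line and oocyte markers, given above, had a median log2 ratio of 0.07 under dcr-1 RNAi and 0.08 under drsh-1 RNAi.

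Of the 31 synthetase genes 22 were above mock under dcr-1 RNAi and 9 below, with a median log2 ratio of 0.21. Of them, 6 were at least 1.5-fold higher (19.4%, beside 16.0% of all genes) and 2 at least 1.5-fold lower (6.45%, beside 13.9%), so the share that was higher is close to the background. The alanyl-tRNA synthetase gene ars-2 was at 111 FPKM under dcr-1 RNAi and 54.1 FPKM under drsh-1 RNAi, against 50.03 FPKM in mock (1.14 and 0.11). The leucyl-tRNA synthetase gene lrs-1 was at 94.7 FPKM under dcr-1 RNAi and 47.4 FPKM under drsh-1 RNAi, against 48.4 FPKM in mock (0.95 and -0.03). Both were about 2-fold above mock under dcr-1 RNAi and within 1.2-fold of it under drsh-1 RNAi.

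ars-1, the other alanyl gene, was at 22.8 FPKM under dcr-1 RNAi and 15.9 FPKM under drsh-1 RNAi, against 13.6 FPKM in mock (0.71 and 0.21). The threonyl-tRNA synthetase gene trs-1 was at 15.2 FPKM under dcr-1 RNAi against 6.00 FPKM in mock (1.21) and was not listed in the drsh-1 table, so no level under drsh-1 RNAi is given. frs-3, named for phenylalanine, was at 71.3 FPKM under dcr-1 RNAi and 38.3 FPKM under drsh-1 RNAi, against 47.1 FPKM in mock (0.59 and -0.29). The ratio of frs-3 under dcr-1 RNAi was just past 1.5-fold and dropped under it, to 0.53, when ratios were centred on the median of all genes. A common upper quartile gave 0.52 for frs-3 and a pseudocount of 5 FPKM gave 0.55, also under 1.5-fold. The ratio of ars-1 dropped just under 1.5-fold, to 0.580, with a pseudocount of 5 FPKM.

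srs-2, a seryl-tRNA synthetase gene, was at 174 FPKM under dcr-1 RNAi against 108 FPKM in mock (0.69). Its mock level in the drsh-1 table is 160 FPKM, with 128 FPKM under drsh-1 RNAi (-0.31). Set against 160 FPKM, the dcr-1 RNAi value gives a log2 ratio of 0.12, so this call too rests on the mock value of the dcr-1 table. ers-2 and yrs-1, named for glutamate and tyrosine, were the remaining genes with unequal mock values. ers-2 was at 94.5 FPKM under dcr-1 RNAi against 68.0 FPKM in mock (0.47) and at 70.8 FPKM under drsh-1 RNAi against 78.1 FPKM in mock (-0.14). yrs-1 was at 36.3 FPKM under dcr-1 RNAi against 45.6 FPKM in mock (-0.32) and at 42.0 FPKM under drsh-1 RNAi against 52.6 FPKM in mock (-0.32). Among all genes listed in both tables, 416 of 9459 had unequal mock values.

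The lowest synthetase gene under dcr-1 RNAi was irs-2, an isoleucyl-tRNA synthetase gene, at 11.9 FPKM under dcr-1 RNAi and 31.6 FPKM under drsh-1 RNAi, against 36.4 FPKM in mock (-1.54 and -0.20). It was the only gene of the 43 at least 2-fold lower under dcr-1 RNAi (2.33%, beside 6.53% of all genes). frs-1, also named for phenylalanine, was at 16.9 FPKM under dcr-1 RNAi and 29.1 FPKM under drsh-1 RNAi, against 29.4 FPKM in mock (-0.76 and -0.01). Both genes were within 1.2-fold of mock under drsh-1 RNAi. The tryptophanyl-tRNA synthetase gene wrs-1 was at 37.8 FPKM under dcr-1 RNAi and 47.0 FPKM under drsh-1 RNAi, against 50.9 FPKM in mock (-0.42 and -0.11). vrs-2, a valyl-tRNA synthetase gene needed for growth of the germ line, was at 52.0 FPKM under dcr-1 RNAi and 64.1 FPKM under drsh-1 RNAi, against 63.9 FPKM in mock (-0.29 and 0.00).

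**Figure D2:**
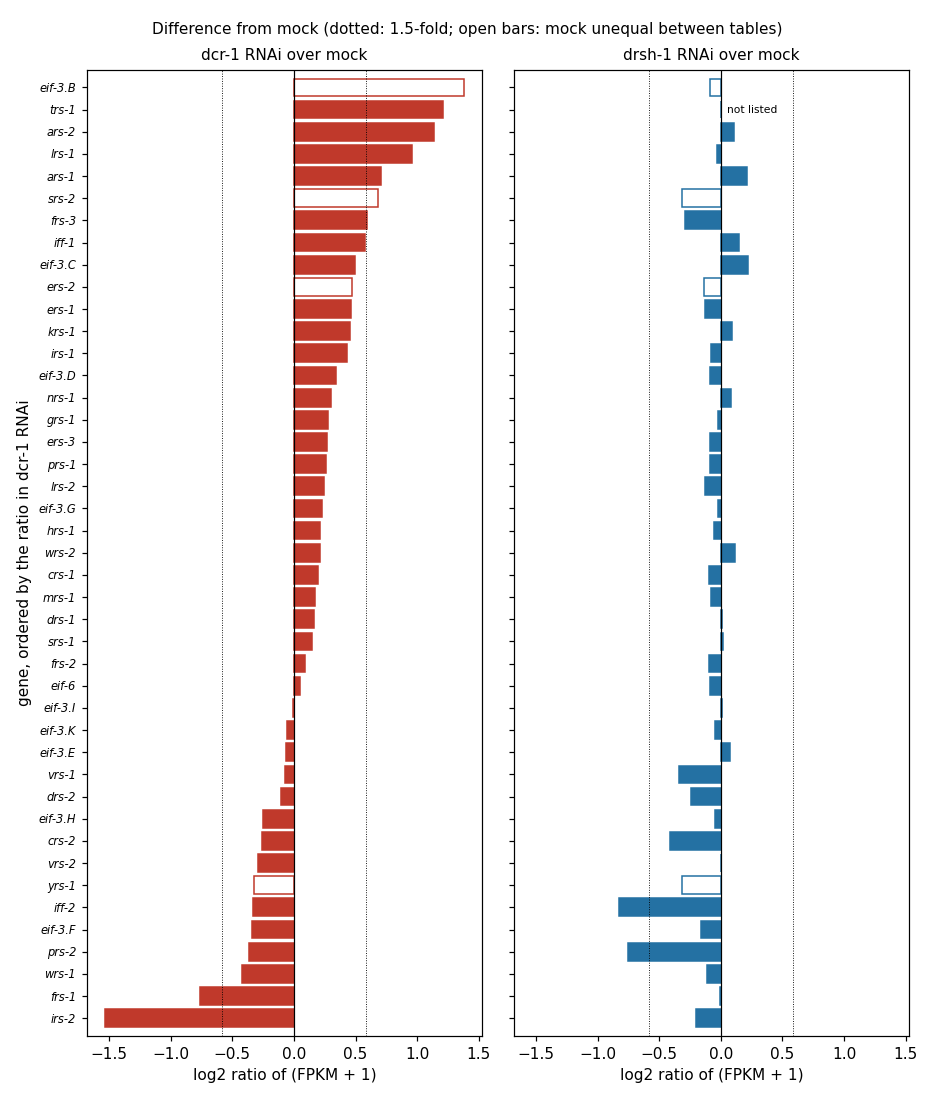
log2 ratio of (FPKM + 1) against mock for each of the 43 genes under dcr-1 RNAi (left) and drsh-1 RNAi (right), ordered by the ratio under dcr-1 RNAi, with dotted lines at 1.5-fold and open bars for the 4 genes whose mock level differs between the tables. The ratios run from -1.54 (irs-2) to 1.38 (eif-3.B) on the left and from -0.83 (iff-2) to 0.22 (eif-3.C) on the right.

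The synthetases fell under 18 name stems, and 11 of these had more than 1 gene. The reference tables used here do not carry these older synthetase names, so cytosolic and mitochondrial enzymes were not told apart. Under dcr-1 RNAi the genes of 4 of the 11 stems were all above mock, those of 1 stem all below, and those of 6 stems lay on both sides. The relative level of the isoleucyl genes, which FPKM gives per length of transcript, differed most between dcr-1 RNAi and mock. irs-1 was at 95.9 FPKM under dcr-1 RNAi and 66.8 FPKM under drsh-1 RNAi, against 70.7 FPKM in mock (0.43 and -0.08), so the level of irs-1 was 8.06 times that of irs-2 under dcr-1 RNAi and 2.12 times under drsh-1 RNAi, against 1.94 times in mock.

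The phenylalanyl genes also differed in their relative levels. The level of frs-1 was 0.236 of that of frs-3 under dcr-1 RNAi and 0.762 under drsh-1 RNAi, against 0.624 in mock. The cytosolic phenylalanyl enzyme is known to be built of alpha and beta subunits made by separate genes, and which of the 3 frs genes makes which was not annotated here. The third, frs-2, was at 95.0 FPKM under dcr-1 RNAi and 83.9 FPKM under drsh-1 RNAi, against 89.5 FPKM in mock (0.09 and -0.09). The tryptophanyl genes were nearly level under dcr-1 RNAi, where wrs-1 was at 1.09 times wrs-2, against 1.70 times in mock, and under drsh-1 RNAi wrs-1 was at 1.45 times wrs-2. For the alanyl genes, which were both above mock, the level of ars-1 was 0.205 of that of ars-2 under dcr-1 RNAi and 0.294 under drsh-1 RNAi, against 0.272 in mock.

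**Figure D3:**
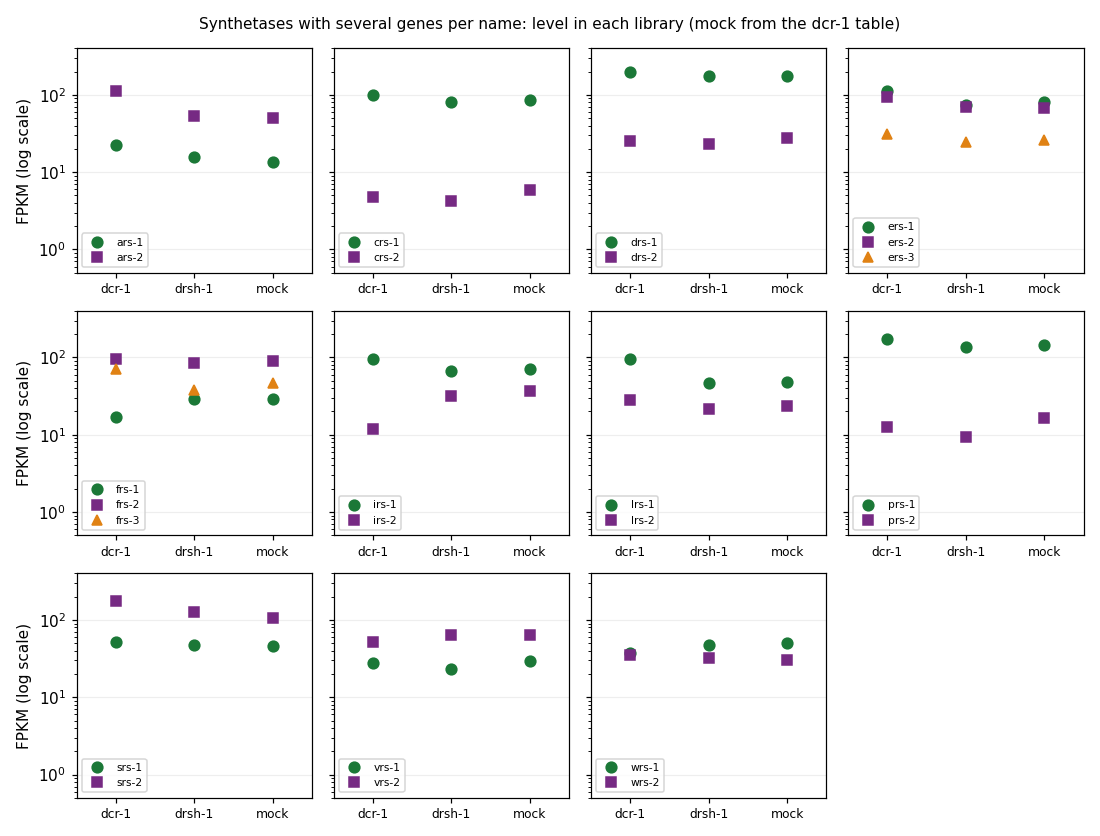
Level (FPKM, log axis) of the synthetase genes of the 11 name stems with more than 1 gene, under dcr-1 RNAi, drsh-1 RNAi and mock from left to right, 1 library each, with mock from the dcr-1 table. irs-2 is at 11.9 FPKM under dcr-1 RNAi against 36.4 FPKM in mock while irs-1 is at 95.9 FPKM against 70.7 FPKM, and frs-1 and frs-3 also lie farthest apart under dcr-1 RNAi.

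Of the 7 stems with 1 gene, 6 were above mock under dcr-1 RNAi, yrs-1 being the exception, and trs-1 was the only gene of these past 1.5-fold. krs-1 had a log2 ratio of 0.45 under dcr-1 RNAi and 0.09 under drsh-1 RNAi, and the asparaginyl-tRNA synthetase gene nrs-1 had 0.30 and 0.08. The glycyl, histidyl and methionyl genes grs-1, hrs-1 and mrs-1 had 0.28, 0.21 and 0.17 under dcr-1 RNAi and between -0.08 and -0.02 under drsh-1 RNAi.

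In the comparison of drsh-1 RNAi with mock, the genes lay closer to mock than under dcr-1 RNAi and more of them were below it. Of 42 genes 30 were below mock (71.4%, beside 49.6% of all 9996 genes) and 12 above, with a median log2 ratio of -0.08 beside 0.00 over all genes. Within 1.2-fold of mock were 35 of 42 (83.3%), beside 67.9% of all genes. The SD across genes was 0.21 in the log2 ratio beside 0.41 over all genes. Neither the SD nor the share within 1.2-fold was computed over genes of like level, and the translation genes were well expressed. At least 1.5-fold higher were 0 of 42, beside 5.45% of all genes, and at least 1.5-fold lower were 2 of 42, or 4.76%, beside 5.19% of all genes. Among genes averaging 20 FPKM or more, these counts were 0 and 1 of 39, beside 3.22% and 2.64% of all such genes. No count of these genes past 1.5-fold was therefore above the background in this library.

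The 2 genes were iff-2, described above, and the prolyl-tRNA synthetase gene prs-2. prs-2 was at 12.6 FPKM under dcr-1 RNAi and 9.36 FPKM under drsh-1 RNAi, against 16.5 FPKM in mock (-0.37 and -0.75), and under drsh-1 RNAi it was just inside 1.5-fold of mock with a pseudocount of 5 FPKM (-0.58). Both were below mock in each RNAi library, with the lower level under drsh-1 RNAi. The next lowest genes under drsh-1 RNAi were crs-2 (-0.41) and vrs-1, a valyl-tRNA synthetase gene, at 28.0 FPKM under dcr-1 RNAi and 23.1 FPKM under drsh-1 RNAi, against 29.5 FPKM in mock (-0.07 and -0.34). The highest were eif-3.C (0.22), ars-1 (0.21), iff-1 (0.15), wrs-2 (0.11) and ars-2 (0.11). wrs-2, the other tryptophanyl gene, was at 34.8 FPKM under dcr-1 RNAi and 32.5 FPKM under drsh-1 RNAi, against 29.98 FPKM in mock. By role, 6 of 9 eIF3 subunits and 22 of 30 synthetase genes were below mock under drsh-1 RNAi, with median log2 ratios of -0.05 and -0.09.

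**Figure D4:**
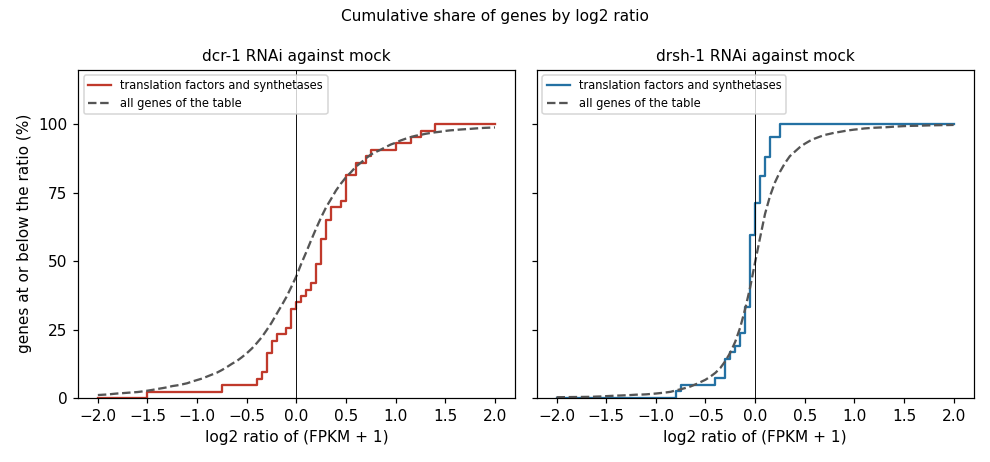
Cumulative share of genes (%) by log2 ratio of (FPKM + 1) against mock under dcr-1 RNAi (left) and drsh-1 RNAi (right), for the translation factors and synthetases (solid) and all genes of the table (dashed). The solid line runs right of the dashed line through the middle of the left panel, where the medians are 0.21 and 0.06, and is steeper and left of it in the right panel, where the medians are -0.08 and 0.00.

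The RNAi libraries were compared directly over genes whose mock value was equal in both tables, 38 of the translation genes among 9043. Of these 29 were higher under dcr-1 RNAi than under drsh-1 RNAi (76.3%, beside 55.5% of all genes) and 9 lower, with a median log2 ratio of 0.26 beside 0.06 over all genes. At least 1.5-fold higher under dcr-1 RNAi were 4 of 38, or 10.5%, beside 13.4% of all genes. These were ars-2 (1.03), lrs-1 (0.98), frs-3 (0.88) and ers-1 (0.60), the last named for glutamate and at 112 FPKM under dcr-1 RNAi and 73.8 FPKM under drsh-1 RNAi. At least 1.5-fold lower were 2 of 38, or 5.26%, beside 12.7% of all genes, and these were irs-2 (-1.34) and frs-1 (-0.75). Among genes averaging 20 FPKM or more, these counts were 4 and 2 of 35, beside 13.3% and 9.74% of all such genes. The median log2 ratio of the 35 was 0.26, beside 0.10 over all such genes. iff-1 and iff-2 were both higher under dcr-1 RNAi than under drsh-1 RNAi (0.43 and 0.50). The eIF3 subunits were split, with 3 of 8 higher and 5 lower and a median of -0.01.

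Other genes of translation, fixed as a list of 46 names, had a larger SD across genes than the eif, iff and synthetase genes under dcr-1 RNAi. It was 1.04 in the log2 ratio beside 0.52, and the extremes of the list were -2.78 and 3.99. The quartiles differed less in width, at -0.36 to 0.28 for the list and -0.09 to 0.46 for the eif, iff and synthetase genes. Of the 46 names 32 were in the tables, 14 of them above mock and 18 below, with a median log2 ratio of -0.05. At least 1.5-fold higher were 4 of 32, beside 16.0% of all genes, and at least 1.5-fold lower were 4, beside 13.9%. The highest were ife-1, a germ line cap-binding protein of the eIF4E family (3.99), atf-5, the worm counterpart of mammalian ATF4, a transcription factor of the response to amino acid shortage (1.19), and iftb-1, the beta subunit of eIF2 (0.79). atf-5 was at 89.0 FPKM under dcr-1 RNAi and 43.2 FPKM under drsh-1 RNAi, against 38.6 FPKM in mock. The lowest were pab-2, a poly(A)-binding protein gene (-2.78), rsks-1, the ribosomal protein S6 kinase (-1.86), and eft-2, the elongation factor that moves the ribosome along the mRNA (-1.20).

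eft-2 was at 206 FPKM under dcr-1 RNAi and 487 FPKM under drsh-1 RNAi, against 475 FPKM in mock, and rsks-1 was at 18.9 FPKM under dcr-1 RNAi and 73.8 FPKM under drsh-1 RNAi, against 71.0 FPKM in mock. Both were thus low under dcr-1 RNAi and near mock under drsh-1 RNAi. The other listed eft genes, eft-1, eft-3 and eft-4, were above mock under dcr-1 RNAi (0.17, 0.28 and 0.35). Under drsh-1 RNAi they had 0.05, 0.11 and -0.29. The level of eft-3 was 4076 FPKM under dcr-1 RNAi and 3623 FPKM under drsh-1 RNAi, against 3362 FPKM in mock. Under drsh-1 RNAi 0 of 32 genes of this list were at least 1.5-fold from mock, beside 5.45% of all genes higher and 5.19% lower. The list had a median of 0.03. Its highest were inf-1, the helicase eIF4A (0.52), tufm-1, a mitochondrial elongation factor (0.42), and abcf-3 (0.20), and its lowest were the cap-binding gene ife-4 (-0.50), pab-2 (-0.47) and efk-1, the kinase of the elongation factor that eft-2 encodes (-0.39).

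Other machinery of protein synthesis and turnover was set beside these genes under dcr-1 RNAi. The 43 genes together had a median log2 ratio of 0.21, between those of all genes (0.06) and ribosomal proteins. That was so for the synthetases (0.21) but not for the 12 eif and iff genes. The median of the eif and iff genes was 0.02, below that of all genes, with 6 of 12 above mock. Of all genes, 55.5% were above mock and 16.0% at least 1.5-fold higher. Of 75 cytosolic ribosomal protein genes 73 were above mock, with a median log2 ratio of 0.60 and 38 at least 1.5-fold higher. Proteasome subunits had 30 of 31 above mock and a median of 0.40, and chaperonin and prefoldin genes 11 of 14 and 0.32. Of 31 names fixed for ribosome assembly and RNA polymerase I, 19 were listed, with 15 above mock and a median of 0.26. No RNA polymerase I subunit with an rpoa name was among the 19. Under drsh-1 RNAi the medians were 0.02, 0.05, -0.03 and -0.13 for the same sets in that order. There 16 of 19 ribosome assembly genes were below mock, beside 49.6% of all genes. No gene was listed under a mitochondrial ribosomal protein name (0 genes). The differences between these sets were not tested.

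**Figure D5:**
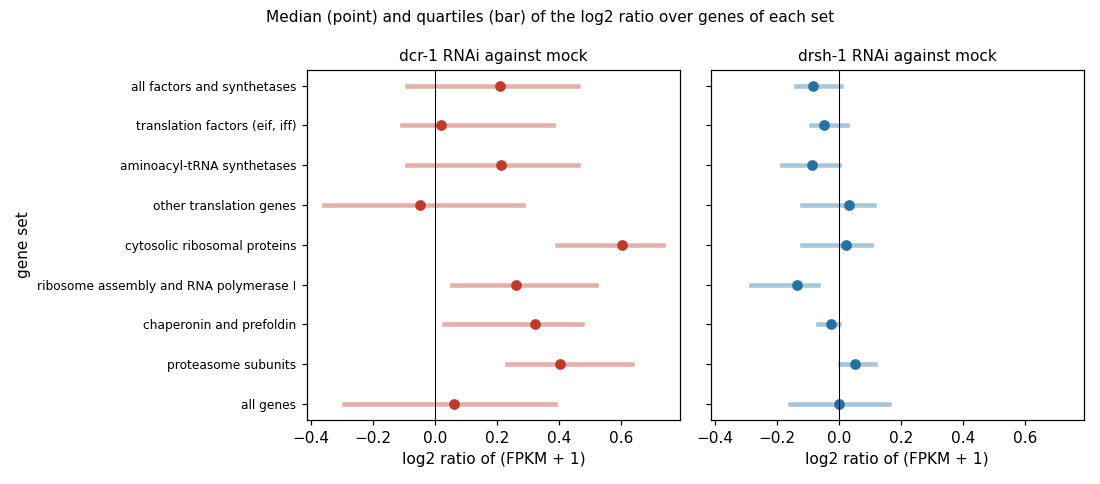
Median (point) and quartiles (bar) of the log2 ratio of (FPKM + 1) against mock over the genes of each set, under dcr-1 RNAi (left) and drsh-1 RNAi (right), with all genes in the bottom row. Under dcr-1 RNAi the factors and synthetases together have a median of 0.21 and the cytosolic ribosomal proteins 0.60, and under drsh-1 RNAi every set's median lies between -0.13 and 0.05.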

How the data were processed

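The authors deposited 1 table per RNAi target, without a header, holding for each gene name the mock FPKM, the FPKM of the RNAi library and their log2 ratio. That deposited log2 ratio was recomputed as log2((RNAi FPKM + 1)/(mock FPKM + 1)) with a largest difference of 5.0e-12. Each table's name gave its RNAi library, and mock was taken to be the column shared by the tables and used as denominator. The submitters' processing notes name TopHat2 2.06, CASAVA 1.8.2, Cuffdiff 2.1.1, SAMtools and Cufflinks, and the genome build, the annotation and the scaling between libraries are not given in the sources used here. The depth of each library is unknown. Each table lists only genes of more than 2 FPKM in both of its libraries, so genes under that level are missing. With 1 library per group no test was made.

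Ratios, counts past 1.5-fold and 2-fold and medians were computed with Python 3.11.15, pandas 2.3.3 and NumPy 2.4.6, with a pseudocount of 1 FPKM, which understates the ratio of low genes. The calculation was run on simulated data with large known changes and little noise, at the 2-fold call. That checks the arithmetic only, not the 1.5-fold call or the noise of single libraries. Mock values were called equal at a difference of at most 1e-09 FPKM. Transcript numbers come from the Ensembl annotation of WBcel235, in which 12 of 43 gene names were found. The genes and lists were chosen with earlier results of these data known. Genes given in full are those at least 1.5-fold from mock, the 5 highest and 5 lowest ratios of each comparison against mock, the 5 highest mock levels, genes with unequal mock values and genes in 1 table only, and of other lists at most 3 at each end. Others that are given were chosen after their values were seen. Alternatives were pseudocounts of 0.1 and 5 FPKM, a mean of at least 5 or 20 FPKM, centring on the median ratio, a common upper quartile, and the treatment of genes with unequal mock values.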

Additional observations from a re-analysis of the deposited data

How the results depend on the processing

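The medians kept their sign and moved by less than 0.1 (log2) under every alternative run. They ranged from 0.14 to 0.21 under dcr-1 RNAi against mock, from -0.09 to -0.07 under drsh-1 RNAi against mock, and from 0.19 to 0.27 between the RNAi libraries. The count of genes at least 1.5-fold higher under dcr-1 RNAi was 4 in place of 7 over genes with equal mock values, where eif-3.B, srs-2 and trs-1 are left out. With the mock values of the drsh-1 table, an alternative chosen after seeing the data, it was 5. The count at least 1.5-fold lower under drsh-1 RNAi was 1 in place of 2 with a pseudocount of 5 FPKM and among those averaging 20 FPKM or more, prs-2 being the gene lost each time. Of 80 ratios of single genes past 1.5-fold under an alternative, 73 stayed past it and 7 did not, and those are eif-3.B, srs-2, frs-3, ars-1 and prs-2. Centring moved all ratios under dcr-1 RNAi by 0.06. No paired analysis was possible because each group has 1 library, and no replicate could be left out. Unknown depth leaves the counting error of every value unknown.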
